A study of Mus musculus with 8 samples.

Results

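The liver's vitamin A (retinoid) genes were examined in Abhd15 knockout (KO) and wild-type (WT) mice, through 9 genes: Rbp4, Ttr, Lrat, Retsat, Rdh11, Rdh16, Aldh1a1, Dhrs3 and Cyp26a1. The 9 were picked by name for their roles in moving, storing and converting retinoids, with earlier results of these data known. Each was read from the probe group (called a transcript cluster on this array) that carries its symbol alone. They stand among 22180 genes with such a cluster. The 5 Abhd15 KO and 3 WT livers, taken here as 1 per mouse, were all from male mice on the C57BL/6J background fed normal chow. The design text gives their age as 14 weeks, while the sample labels give 14 weeks as the longest time on the chow. Every animal was fasted overnight and refed for 1 hour before the liver was taken. Both groups thus had the same feeding schedule, which does not show that each liver had reached the same fed state. How the Abhd15 deletion was made is not described in the labels or design text, nor is it stated whether it is confined to certain cells. One Mouse Gene 2.0 ST array was run per liver, and each cluster has a log2 expression value on it.

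Dietary vitamin A reaches the liver as retinyl ester. Hepatocytes release retinol from it and either send it out on a plasma carrier or pass it to stellate cells, which re-esterify it and keep it in lipid droplets. A further small share is oxidised, first to retinaldehyde by dehydrogenases that also run in reverse as reductases, then to retinoic acid, the ligand of the nuclear retinoic acid receptors. Cytochrome P450 enzymes of the Cyp26 family break retinoic acid down, and retinoic acid induces them.

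Abhd15 itself read 5.137, 5.042, 5.206, 5.175 and 5.035 in KO arrays 1 to 5, against 5.647, 5.812 and 5.460 in WT arrays 1 to 3. Every KO array lay below every WT array, which is the direction the labels give, although the place of the probes relative to the deletion is not known here. On the first principal component KO arrays 1 and 2 scored 35.7 and 32.1, and the highest of the remaining 6 arrays 0.661. The same arrays had a mean over 16 immediate early genes of 6.766 and 6.815, against 5.094 to 5.310 in the other KO arrays and 5.000 to 5.191 in WT. Igfbp1, which insulin represses, read 10.257 and 9.562 in them, against 5.656 to 6.884 in the other KO arrays and 4.353 to 5.781 in WT. The log2 difference of each of the 9 genes is therefore also given without KO arrays 1 and 2. Across all 23521 clusters with 1 symbol, limma called 0 at an adjusted p of 0.05 (0% of those tested), and 1429 (6.08%) had an unadjusted p under 0.05.

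Of the 9 retinoid genes, 7 had a lower mean in KO and 2 a higher one. None passed limma's adjusted threshold, with adjusted p-values between 0.795 and 0.979. At an unadjusted limma p under 0.05 there were 4, Rdh16, Retsat, Lrat and Cyp26a1, all of them lower in KO, beside 3.32% of all clusters that were lower by that rule (3.91% among the 7699 that averaged 5 or more). The KO arrays lay wholly below the WT arrays in 3 of the 9, Rdh16, Retsat and Lrat, beside 2.44% of all clusters (4.22% of those that averaged 5 or more). Because the 9 were chosen with earlier results of these data known, setting them beside these shares is not a test of the set. The median log2 difference, KO minus WT, was -0.20 over the 9 genes and -0.003 over all 22180 genes, of which 11268 had a lower mean in KO. Without KO arrays 1 and 2 the median over the 9 was -0.23 and 2 genes kept an unadjusted p under 0.05, Rdh16 and Retsat. Of all 22180 genes, 679 were lower and 635 higher at that p without those arrays, with a median of -0.008. A single WT array also moved this count: it was 1 without WT array 2, where Rdh16 alone remained, and 2 without WT array 3. The genes are described here by their step, and the hybridisation values are compared within a gene and not between genes.

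**Figure D1:**
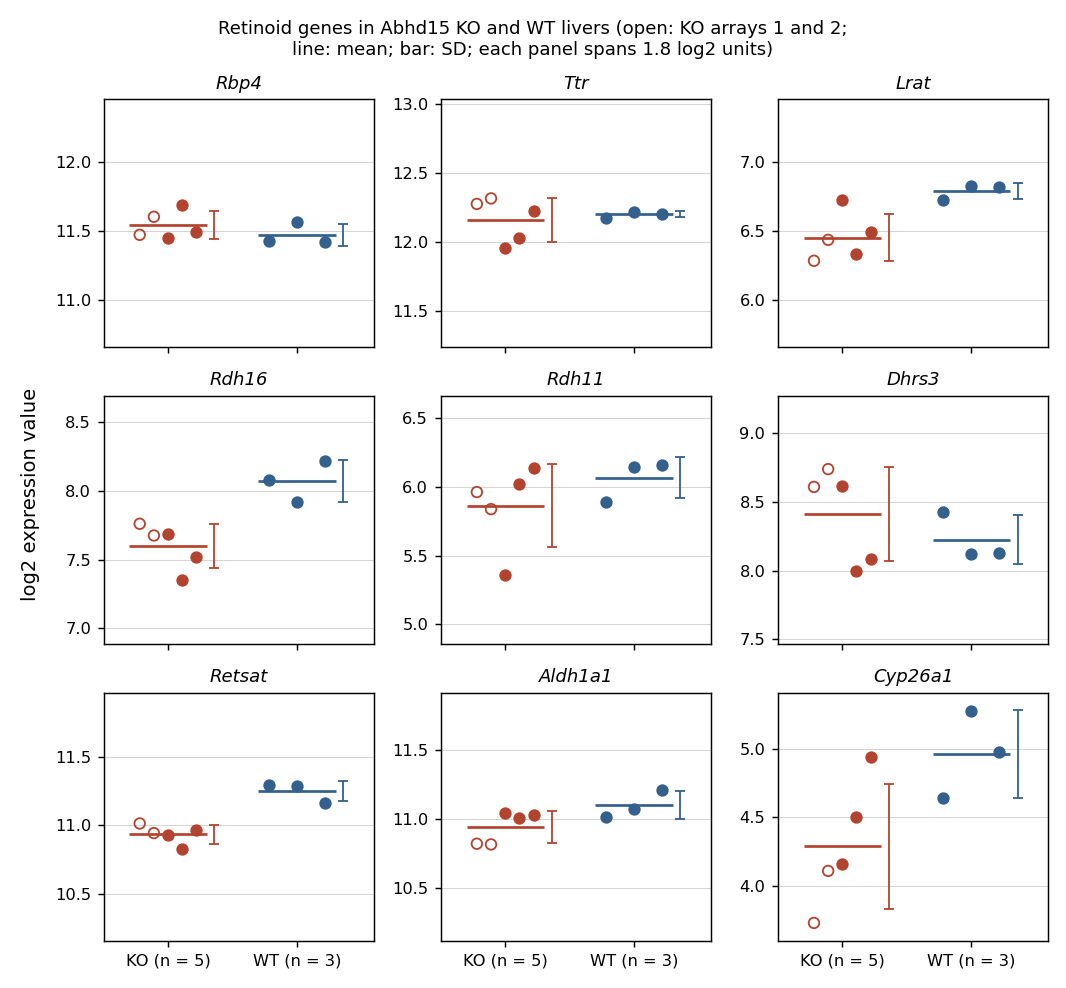
Log2 expression values (vertical axes) of the 9 retinoid genes in 5 KO arrays (left, red) and 3 WT arrays (right, blue). Open circles are KO arrays 1 and 2, lines are means and bars are SD. Rdh16, Retsat and Lrat have every KO circle below every WT circle, and Rbp4 and Ttr have overlapping groups.

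The carrier pair came first in the pathway's outflow and showed no difference beyond the spread. Rbp4 encodes the plasma carrier of retinol, made by hepatocytes. It read 11.471, 11.602, 11.451, 11.687 and 11.495 in KO arrays 1 to 5, against 11.425, 11.564 and 11.421 in WT. The groups overlapped, and the log2 difference of 0.07 (SE 0.122) had a 95% interval of -0.20 to 0.34 in limma. It was 0.07 also without KO arrays 1 and 2. Ttr encodes transthyretin, which binds the carrier with its retinol and keeps it from being lost through the kidney, and also carries thyroid hormone. It read 12.276, 12.316, 11.953, 12.032 and 12.221 in KO arrays, against 12.176, 12.219 and 12.204 in WT. KO arrays spread on both sides of the narrow WT range, with KO arrays 1 and 2 at the top and KO arrays 3 and 4 at the bottom. The log2 difference of Ttr was -0.04 (SE 0.132), with a 95% interval of -0.33 to 0.25, and it was -0.13 without KO arrays 1 and 2. Its sign turned without KO array 3 (0.01). Both genes are known to be turned down in acute inflammation, and the 22 measured acute phase genes had array means of 9.401 to 10.447 in KO and 9.424 to 9.851 in WT. KO array 1 had the highest acute phase mean and the second highest Ttr value of all 8 arrays, and the part of the acute phase in either gene was not tested.

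The storage enzyme read lower in KO. Lrat encodes lecithin retinol acyltransferase, which turns retinol into the retinyl ester that is stored, and in liver it is known mainly from stellate cells. Its values were 6.283, 6.435, 6.722, 6.330 and 6.490 in KO arrays 1 to 5, against 6.725, 6.826 and 6.822 in WT. KO arrays 1, 2, 4 and 5 lay clearly below WT, while KO array 3 lay just under the lowest WT array. The log2 difference was -0.34 (SE 0.136), or 1.26-fold lower in KO, with an unadjusted limma p of 0.031, an adjusted p of 0.795 and a two-sided exact permutation p of 0.0357. Without KO arrays 1 and 2 it was -0.28 (SE 0.158) with an exact permutation p of 0.1, the smallest that 3 against 3 arrays can give. In whole liver, fewer cells of a type and less RNA per cell cannot be told apart.

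Markers of stellate cells stood on both sides of WT. Over 21 markers, all of them measured, 10 had a higher and 11 a lower mean in KO, with a median log2 difference of -0.10. When KO arrays 1 and 2 were left out, 14 of the 21 were lower, with a median of -0.08. Their mean level was 5.507 to 5.728 in KO arrays and 5.615 to 5.752 in WT, and none of the 21 averaged below the array medians. The brightest of them, Dcn (decorin) and Ecm1, had log2 differences of -0.10 (SE 0.169) and -0.11 (SE 0.148), and 0.05 and -0.04 without KO arrays 1 and 2. Lhx2, a transcription factor of quiescent stellate cells, named after its values were seen, was the 1 marker with an unadjusted limma p under 0.05, at a log2 difference of -0.64 (SE 0.261, adjusted p = 0.795). It was -0.42 without KO arrays 1 and 2, with an unadjusted limma p of 0.143. Taken within each array, Lrat minus the marker mean was 0.566, 0.821, 0.994, 0.770 and 0.983 in KO arrays and 1.110, 1.189 and 1.070 in WT. The difference between the group means of this ratio was -0.30. Single markers ranged from Lhx2 at -0.64 to Acta2 at 0.49 (SE 0.288), so their mean is not a measure of stellate cell number. Acta2 was at 0.14 without KO arrays 1 and 2. Vipr1 was the 1 marker with every KO array below every WT array, as for Lrat. Its log2 difference was -0.28 (SE 0.142), and -0.16 without KO arrays 1 and 2. Acta2 and Vipr1 were named after their values were seen, and the part of cell number in Lrat was not tested.

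**Figure D2:**
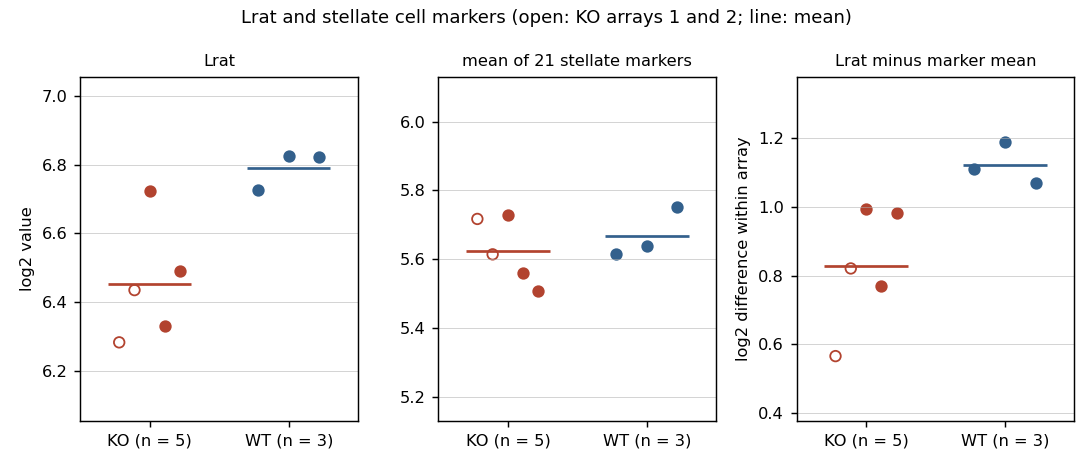
Log2 values of Lrat (left), the mean of 21 stellate cell markers (middle) and Lrat minus that mean within each array (right), in 5 KO arrays (red; open circles are arrays 1 and 2) and 3 WT arrays (blue), with lines at the group means. The KO and WT circles separate for Lrat and for the ratio, and overlap for the marker mean.

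Among the enzymes that convert retinol, Rdh16 and Retsat read lower in KO, while Rdh11, Dhrs3 and Aldh1a1 overlapped between the groups. Rdh16 encodes a short-chain dehydrogenase of the endoplasmic reticulum that oxidises retinol, cis forms included, and some steroids. It read 7.760, 7.675, 7.687, 7.355 and 7.517 in KO arrays 1 to 5, against 8.075, 7.916 and 8.217 in WT. All KO arrays lay below all WT arrays, KO array 4 being the lowest. The log2 difference was -0.47 (SE 0.141), or 1.39-fold lower in KO, with an unadjusted limma p of 0.00706, an adjusted p of 0.795 and an exact permutation p of 0.0179, which is the lowest possible with 56 splits. Without KO arrays 1 and 2 it was -0.55 (SE 0.162), and over the omission of any single array it lay between -0.55 and -0.40.

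Rdh16 sits in a row of related dehydrogenase genes on chromosome 10, with Rdh9 and Rdh19 on either side. Their sequences are alike, so probes may be shared, and a further cluster named for both Rdh16 and a pseudogene was not used. The neighbours were looked up for their place and not by the rule for named genes, and whether they differ from Rdh16 was not tested. Rdh9 had a log2 difference of -0.38 (SE 0.37) with KO arrays both above and below WT ones, and Rdh19, at a dim mean of 2.01 in KO and 1.76 in WT, one of 0.25 (SE 0.154). Rdh7 and Rdh16f2, of the same family, had log2 differences of -0.07 (SE 0.149) and 0.30 (SE 0.219), and -0.21 and 0.06 without KO arrays 1 and 2.

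Rdh11 and Dhrs3 encode reductases that act mainly in the other direction, from retinaldehyde back to retinol. Rdh11 read 5.961, 5.837, 5.356, 6.023 and 6.137 in KO arrays, against 5.892, 6.143 and 6.157 in WT. Only KO array 3 stood well below the rest, and the log2 difference of -0.20 (SE 0.182, 95% interval -0.60 to 0.20) was -0.07 without it and -0.23 without KO arrays 1 and 2. Dhrs3, which retinoic acid induces, read 8.608, 8.737, 8.616, 7.995 and 8.086 in KO arrays, against 8.429, 8.117 and 8.127 in WT. The KO arrays fell on both sides of WT, with arrays 1, 2 and 3 above all WT arrays and arrays 4 and 5 below them. Its log2 difference was 0.18 (SE 0.198, 95% interval -0.25 to 0.62), and 0.01 without KO arrays 1 and 2.

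Retsat encodes retinol saturase, which adds hydrogen across a double bond of retinol and gives dihydroretinol. It read 11.014, 10.944, 10.929, 10.827 and 10.967 in KO arrays 1 to 5, against 11.295, 11.287 and 11.163 in WT. The KO values were tightly grouped, with an SD of 0.069, and all lay below WT. The log2 difference of -0.31 (SE 0.117), or 1.24-fold lower in KO, had an unadjusted limma p of 0.0229, an adjusted p of 0.795 and an exact permutation p of 0.0179. It was -0.34 (SE 0.142) without KO arrays 1 and 2, and lay between -0.35 and -0.28 when any single array was left out.

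Aldh1a1, which oxidises retinaldehyde to retinoic acid and is abundant in hepatocytes, read 10.819, 10.814, 11.045, 11.003 and 11.025 in KO arrays, against 11.011, 11.074 and 11.212 in WT. Only KO arrays 1 and 2 stood well below WT, and the groups overlapped. The log2 difference was -0.16 (SE 0.126, 95% interval -0.44 to 0.12), and -0.07 without those arrays. Its neighbour and close relative Aldh1a7, looked up for its place, had one of -0.29 (SE 0.201), and probes of the pair may not separate them.

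**Figure D3:**
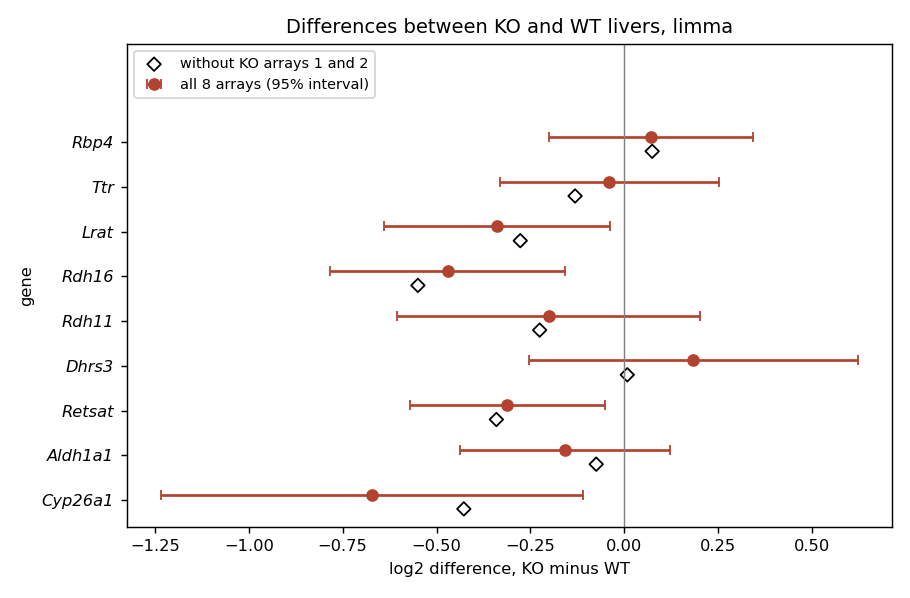
Log2 difference, KO minus WT (horizontal axis), of the 9 retinoid genes over all 8 arrays with limma's 95% interval (red), and without KO arrays 1 and 2 (open diamonds). Rdh16 and Retsat keep their distance from 0 without those arrays, Cyp26a1 goes to -0.43 and Dhrs3 to 0.01.

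Cyp26a1 ends the pathway: it encodes the cytochrome P450 that hydroxylates retinoic acid, and its transcription is a standard readout of retinoic acid in cells. Its promoter is shown because it holds the receptor's element close to the gene's start. Promoter windows of 300 bases, from 250 before to 50 after an annotated start, were available in the RefSeq table (GRCm38.p6) for 8 of the 9 genes, 13 windows in all. They were searched on both strands for a retinoic acid response element of the DR5 kind, a direct repeat of the hexamer AGGTCA with 5 bases between the copies, where the first base may also be G and the third T. One window matched, that of Cyp26a1 at chr19:37697558-37697857 on the plus strand, beside 0.0974% of all 32851 windows. The capitals mark the element, bases 219 to 235 of the window.

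Cyp26a1: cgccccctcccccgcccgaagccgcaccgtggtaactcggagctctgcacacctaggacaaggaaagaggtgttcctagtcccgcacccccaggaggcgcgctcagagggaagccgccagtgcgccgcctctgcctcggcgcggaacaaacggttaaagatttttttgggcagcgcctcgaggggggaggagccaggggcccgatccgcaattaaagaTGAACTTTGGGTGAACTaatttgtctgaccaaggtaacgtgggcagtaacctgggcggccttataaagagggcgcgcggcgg

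Read on the minus strand, the element is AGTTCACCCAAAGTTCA. Repeats with a spacing of 2 bases (DR2, in 0.268% of all windows) or 1 base (DR1, 0.222%) had no match in the 13 windows, which says only that these letters are not there.

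Cyp26a1 read 3.734, 4.112, 4.163, 4.504 and 4.937 in KO arrays 1 to 5, against 4.638, 5.273 and 4.975 in WT. KO arrays 1 to 4 lay below all WT arrays, while KO array 5 lay within the WT range. The cluster is dim, next to array medians of 2.99 to 3.05, so that a log2 difference there may be compressed. The difference of -0.67 (SE 0.253), or 1.59-fold lower in KO, had an unadjusted limma p of 0.0233, an adjusted p of 0.795 and an exact permutation p of 0.0714. Without KO arrays 1 and 2 it was -0.43 (SE 0.239) with an unadjusted limma p of 0.108, and without WT array 2 it was -0.52. Cyp26c1, the gene beside it, was dimmer, at 2.90 in KO and 2.73 in WT, with a log2 difference of 0.17 (SE 0.156).

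Other genes that retinoic acid induces did not read lower as a group. Of 12 listed, 9 were measured, with 6 higher and 3 lower in KO, a median log2 difference of 0.05 (0.16 without KO arrays 1 and 2), and 0 with an unadjusted limma p under 0.05. Much of this list is dim: 3 of the 9 averaged below the highest array median of 3.05. Crabp2, Cyp26b1 and Rarb averaged 3.30, 3.54 and 3.76. Such dim clusters have little room to read lower. Tgm2, Rarres1 and Nrip1 were brighter, averaging 7.96, 7.72 and 6.38, and had more room. Rarres1, named after its values were seen, differed between KO and WT by 0.10 (SE 0.326). With KO arrays 1 and 2 omitted, Tgm2, Rarres1 and Nrip1 stood at 0.11, 0.51 and -0.195 relative to WT. Tgm2, transglutaminase, had a log2 difference of 0.07 (SE 0.201), Nrip1, a receptor corepressor, one of -0.07 (SE 0.174), and Hoxb1, a dim homeobox gene, one of -0.29 (SE 0.236). Cyp26a1 and Dhrs3, both known to be induced by retinoic acid, stood on opposite sides of the WT mean in KO arrays 1, 2 and 3. In those arrays Cyp26a1 was 1.23, 0.85 and 0.80 log2 units below the WT mean, while Dhrs3 was 0.38, 0.51 and 0.39 above it. In KO arrays 4 and 5 both genes lay below it, Cyp26a1 at -0.46 and -0.03 and Dhrs3 at -0.23 and -0.14. The part of retinoic acid in either gene was not tested.

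**Figure D4:**
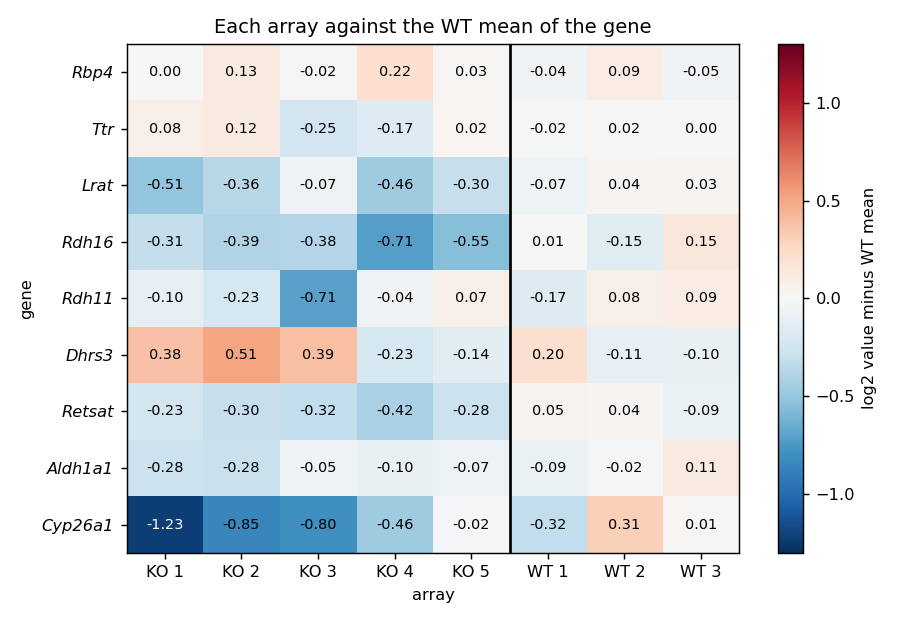
Log2 value of each gene (rows) in each array (columns, KO left of WT) minus the gene's WT mean, in colour and in numbers, with red above and blue below. Rdh16 and Retsat are below the WT mean in all 5 KO arrays, and Cyp26a1 and Dhrs3 differ most among the KO arrays.

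Cyp26a1 and Dhrs3 varied most over the 8 arrays (SD 0.517 and 0.291). The genes with profiles most like theirs were found by the root mean square distance between log2 profiles, each centred on its own mean, over 8 arrays and among genes with a mean of at least 5. For Cyp26a1 these were Avpr1a, a vasopressin receptor, Gpd1, a glycerol phosphate dehydrogenase, and Tlr5, the flagellin receptor, at distances of 0.18, 0.212 and 0.216 log2 units. Avpr1a read 6.498, 6.527, 6.891, 6.911 and 7.536 in KO arrays, against 7.341, 7.480 and 7.489 in WT. For Dhrs3 they were Tpm4, a tropomyosin, Cyp4a12b, a fatty acid hydroxylase, and Scamp1, a membrane trafficking protein, at 0.0643, 0.101 and 0.108.

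The rest of the pathway was taken from 6 lists holding 75 genes beside the 9, of which 68 were measured. In KO 40 had a higher and 28 a lower mean, with a median log2 difference of 0.04. This balance turned without KO arrays 1 and 2, where 35 were lower and the median was -0.02. None passed limma's adjusted threshold, and 6 had an unadjusted p under 0.05, 1 higher and 5 lower, beside 2.75% and 3.32% of all clusters. Without KO arrays 1 and 2 there were 5 lower and 0 higher, beside 679 lower and 635 higher of all 22180 genes. The called pathway genes were not all the same. Adh4, Akr1c6 and Ces1f kept an unadjusted p under 0.05, Cyp2c39, Lipa and Dhrs9 lost it, and Aox1 and Ces1e gained it.

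The 20 measured dehydrogenases, reductases and related oxidases of retinol and retinaldehyde held 3 of the 6. Adh4, a class of alcohol dehydrogenase active on retinol, read 8.14 ± 0.215 (SD, n = 5) in KO and 8.63 ± 0.0308 (SD, n = 3) in WT. All KO arrays lay below WT, with a log2 difference of -0.49 (SE 0.147, limma adjusted p = 0.795) and -0.51 without KO arrays 1 and 2. Akr1c6, an aldo-keto reductase known mainly for acting on steroids, read 6.43 ± 0.441 (SD, n = 5) in KO and 7.46 ± 0.384 (SD, n = 3) in WT, again without overlap. Its log2 difference was -1.03 (SE 0.258, limma adjusted p = 0.795), and -0.76 without KO arrays 1 and 2. Dhrs9, a dehydrogenase of retinol and steroids, was the higher one, at 5.89 ± 0.379 (SD, n = 5) in KO and 5.14 ± 0.639 (SD, n = 3) in WT, and its unadjusted limma p was 0.101 without KO arrays 1 and 2. The groups overlapped for Dhrs9, and WT array 3 read 4.398, against 5.479 and 5.529 in WT arrays 1 and 2. Adh1 and Rdh10, both known retinol dehydrogenases and named after their values were seen, had log2 differences of -0.03 (SE 0.138) and -0.15 (SE 0.139), and -0.14 and -0.15 without KO arrays 1 and 2.

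Of 11 measured genes that make or break down retinoic acid, 1 had an unadjusted limma p under 0.05. Cyp2c39, a cytochrome P450 with retinoic acid hydroxylase activity, read 4.89 ± 0.864 (SD, n = 5) in KO and 6.07 ± 0.078 (SD, n = 3) in WT. Its values were 4.647, 4.082, 5.009, 4.385 and 6.306 in KO arrays, so that KO array 5 lay above all WT arrays, as it lay highest among KO arrays for Cyp26a1. The log2 difference was -1.18 (SE 0.405), and -0.83 without KO arrays 1 and 2, with an unadjusted limma p of 0.0723 there. Aox1, an aldehyde oxidase that can act on retinaldehyde, had a log2 difference of -0.31 (SE 0.149) with no overlap, and -0.42 without those arrays, and Aldh1a2 was dim, at 2.41 in KO and 2.80 in WT.

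Among 13 genes that form or hydrolyse retinyl esters or cleave carotenoids, 2 were lower at an unadjusted limma p under 0.05. Lipa, the lysosomal acid lipase, read 10.5 ± 0.101 (SD, n = 5) in KO and 10.8 ± 0.0199 (SD, n = 3) in WT. The groups did not overlap, and the log2 difference was -0.29 (SE 0.12). It was -0.31 without KO arrays 1 and 2, with an unadjusted limma p of 0.0639. Ces1f, a carboxylesterase, had one of -0.50 (SE 0.225), and -0.79 without KO arrays 1 and 2. Pnpla3, a lipase that has been linked to retinyl ester release in stellate cells, was dim, with a log2 difference of 0.40 (SE 0.191).

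The binding and uptake list (10 measured) and the receptor list (10 measured) had 0 genes with an unadjusted limma p under 0.05. In the first, 8 were higher and 2 lower in KO, with a median log2 difference of 0.07. Smallest in limma p, not largest in difference, were 3 genes. They were Scarb1, a lipoprotein receptor that takes up carotenoids (0.33, SE 0.16), Cd36, a fatty acid and lipoprotein receptor (0.30, SE 0.194), and the dim Rbp2, an intracellular retinol binder (0.19, SE 0.177). Their log2 differences were 0.27, 0.08 and 0.30 without KO arrays 1 and 2. In the second, 7 were higher and 3 lower, with a median of 0.10 (0.15 without KO arrays 1 and 2). Rara, the main retinoic acid receptor of many tissues, had a log2 difference of 0.19 (SE 0.159), Rxrg one of 0.28 (SE 0.167) and Ppard one of 0.19 (SE 0.18).

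**Figure D5:**
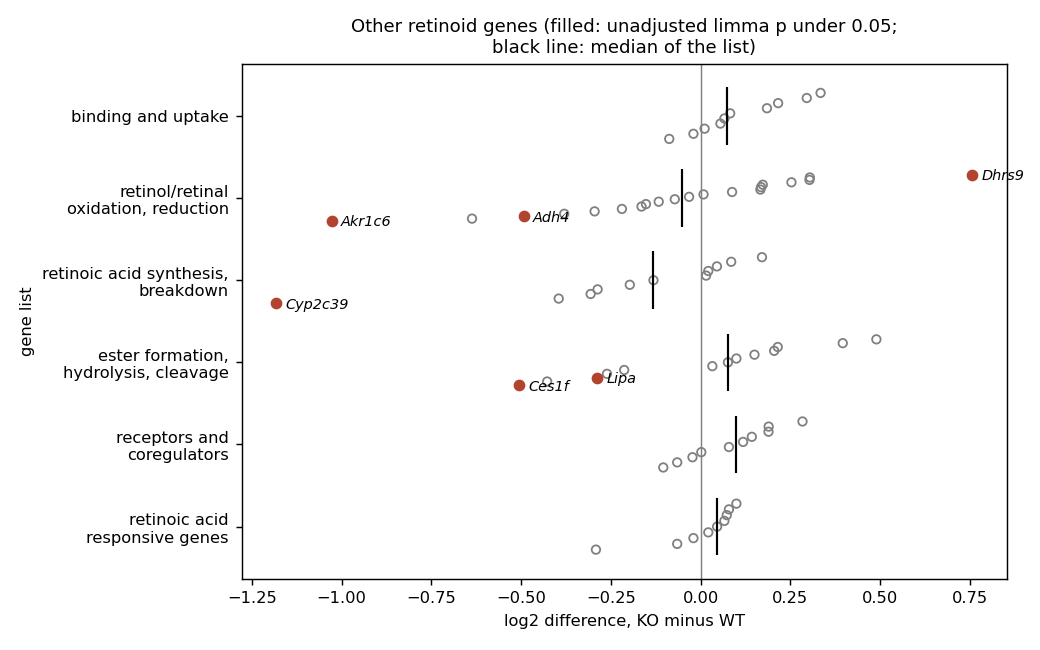
Log2 difference, KO minus WT (horizontal axis), of the measured genes in 6 lists of other retinoid genes (rows), with filled red circles for an unadjusted limma p under 0.05 and black lines at list medians. Akr1c6, Adh4, Cyp2c39, Ces1f and Lipa lie to the left of 0 and Dhrs9 to the right.

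Hepatocyte and other cell markers were set beside these values. Of 14 measured hepatocyte markers, 4 were higher and 10 lower in KO, with a median log2 difference of -0.03, and -0.08 without KO arrays 1 and 2. Their mean level was 10.464 to 10.759 in KO arrays and 10.698 to 10.757 in WT, KO array 4 being lowest. Rdh16, Retsat and Dhrs3 were also lowest in that array, while Rbp4 was highest there. Ttr, Lrat, Rdh11, Aldh1a1 and Cyp26a1 were each lowest in another array. The part of hepatocyte content in these genes was not tested. Alb, albumin, and Cyp2e1 had log2 differences of -0.03 (SE 0.119) and -0.10 (SE 0.118). Fabp1, the liver fatty acid binding protein, named after its values were seen, was the 1 hepatocyte marker with an unadjusted limma p under 0.05. Its log2 difference was -0.63 (SE 0.158, adjusted p = 0.795) with every KO array below every WT array, larger than those of Rdh16 and Retsat, and -0.79 without KO arrays 1 and 2. Tat, a hepatocyte marker also named after its values were seen, went the other way, with every KO array above every WT array. The log2 difference of Tat was 0.21 (SE 0.12), and 0.15 without KO arrays 1 and 2. Mean levels of 11 Kupffer cell markers (5.651 to 6.716 in KO, 5.882 to 6.354 in WT), 10 sinusoidal endothelial markers (7.079 to 7.189 in KO, 7.082 to 7.155 in WT) and 5 cholangiocyte markers (3.553 to 3.739 in KO, 3.451 to 3.780 in WT) overlapped between the groups. Clec4f and C1qb of the Kupffer cells had log2 differences of 0.22 (SE 0.217) and -0.03 (SE 0.242). Clec4g and Fcgr2b of the endothelium had -0.26 (SE 0.144) and -0.13 (SE 0.173), the second near 0 (-0.0093) without KO arrays 1 and 2. Lyve1, a hyaluronan receptor of the endothelium, named after its values were seen, was higher in KO, at 0.65 (SE 0.164, limma adjusted p = 0.795), with every KO array above every WT array, and 0.53 without KO arrays 1 and 2. Sox9 and Epcam of the bile ducts had -0.07 (SE 0.231) and -0.42 (SE 0.193), and -0.32 and -0.38 without those arrays.

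By cell of origin, both the hepatocyte and the stellate steps held genes that read lower in KO. Of the 8 genes known mainly from hepatocytes or from both cell types, Rdh16 and Retsat had KO values wholly below WT, Cyp26a1 had 4 of 5 KO arrays below WT, and Rbp4, Ttr, Rdh11, Aldh1a1 and Dhrs3 had overlapping groups. Lrat, the 1 gene of the stellate step, had a log2 difference of -0.34, between those of Retsat (-0.31) and Rdh16 (-0.47).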

How the data were processed

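Liver RNA of 5 Abhd15 KO and 3 WT samples was measured on 1-colour Affymetrix arrays, 1 per sample, with groups and replicate numbers taken from the sample titles. The authors deposited log2 values for 41345 transcript clusters, and per the submitters' processing notes RMA and oligo were used, while the design text names Expression Console. Versions, settings and genome build are unstated in the labels and design text. The log2 scale was read from the range of the values, 0.409 to 13.27. RMA as commonly run compresses differences of dim clusters.

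Clusters were named by GEO's platform annotation: 23521 have 1 symbol, 1814 several and 16010 none. Each of the 9 genes has 1 such cluster of its own, and the symbols matched RefSeq's list of mouse genes by Entrez ID. For other genes the cluster with the highest mean was used. KO minus WT was fitted by limma (version 3.58.1, under R 4.3.3) on the 8 arrays with lmFit and eBayes, leaving 6 residual degrees of freedom. All tests are two-sided, and p-values were adjusted by Benjamini-Hochberg across the 23521 clusters (threshold 0.05). The fit was tested on simulated data. For single genes an exact permutation test ran through the 56 splits. The labels number the replicates and do not list the animals. That each array stands for a separate mouse was assumed, so p-values reflect only how these samples varied. No batch is given to test, and precision is limited by the number of arrays.

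Named were the 9 genes, Abhd15, the 3 genes with the smallest p of each retinoid, acute phase, immediate early and fasting list, the 2 brightest of each marker list, and genes of like profile. The genes and lists were chosen with earlier results of these data known. Listed genes without a single-symbol cluster were not analysed here. Alternatives covered the clusters tested, a filter on dim clusters, empirical Bayes settings, array weights, normalization, centring, the choice of cluster, each array left out, KO arrays 1 and 2 left out (chosen after seeing the data) and the replicate number as a block.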

Additional observations from a re-analysis of the deposited data

Results flagged for a closer look

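Among the 5 KO arrays, 53 genes were checked for an array far from the others, a check that flags about 1 in 20 groups by chance, and 2 met it. Ecm1 read 8.803 in KO array 3, against 8.378 for the next KO array. Alb read 12.911 in KO array 4, against 13.083 for the next KO array. None of the 9 retinoid genes met it. For the lists beside the retinoid genes, the 3 genes with the smallest limma p are named. In the acute phase list 19 of 22 genes were higher in KO, with a median log2 difference of 0.19, while without KO arrays 1 and 2 the median was 0.11 and 8 were lower, and Mt2, Il1r1 and Serpina3n had differences of 0.85 (SE 0.244), 0.74 (SE 0.252) and 0.46 (SE 0.183), or 0.66, 0.69 and 0.52 without those arrays. In the immediate early list 15 of 16 were higher, with a median of 0.75, and 0.17 without KO arrays 1 and 2, and Klf4, Atf3 and Jun had differences of 0.45 (SE 0.168), 0.85 (SE 0.32) and 0.79 (SE 0.317), or 0.52, 0.44 and 0.43 without those arrays. In the fasting and insulin-repressed list 10 of 11 were higher, with a median of 0.19, while without KO arrays 1 and 2 the median was 0.08 and 4 were lower, and Slc25a25, Igfbp1 and G6pc had differences of 0.89 (SE 0.263), 2.83 (SE 0.985) and 0.67 (SE 0.374), or 0.57, 1.35 and 0.11 without those arrays.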

How the results depend on the processing

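None of the 9 retinoid genes passed limma's adjusted threshold under any of the 17 alternatives. The sign of each gene was kept in all of them except for Ttr, whose log2 difference was 0.0046 after quantile normalization again and ranged from -0.0792 to 0.0116 when single arrays were left out. The count of the 9 with an unadjusted p under 0.05 was 2 without KO arrays 1 and 2, and 1 to 4 over single omissions. The same count for other pathway genes was 11 with trend and robust settings and 4 to 9 over single omissions. All single-symbol clusters past the adjusted threshold numbered 0 over single omissions, 1 among clusters with a mean of at least 5, where Cyp26a1 was not tested, and 3 with trend and robust settings. With the replicate number as a block, the counts were 2 of the 9, 11 other pathway genes and 1 cluster. Replicate numbers 4 and 5 occur only in KO, so under this block the difference rests on KO arrays 1 to 3 and the 3 WT arrays. Rdh16 and Retsat then had log2 differences of -0.36 and -0.29, with unadjusted limma p-values of 0.0533 and 0.092. Cyp26a1 and Dhrs3 had -0.96 and 0.43, with unadjusted limma p-values of 0.00089 and 0.0378. Same-numbered arrays did not deviate together (correlations across clusters of -0.14, 0.0734 and 0.0601). These values show no pairing by number, but so few of them cannot exclude one. Fewer arrays or clusters were fitted where some were left out, and fewer arrays inform the difference under the block. The share of all clusters with an unadjusted p under 0.05 was not counted under trend and robust settings, single omissions or the block. Changes in the counts of retinoid genes there can thus not be set beside a shift over all clusters. Why the counts moved was not tested beyond this.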
